A study of Aspergillus nidulans with 24 samples.

Results

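Heat shock protein and chaperone genes of the filamentous fungus Aspergillus nidulans were taken as all rows of the expression table whose product description holds "heat shock", "heat-shock", "chaperone", "DnaJ" or "unfolded protein binding". This gave 52 of 8728 genes, 10 of them with a symbol, and 51 had an average of at least 10 normalized counts over the groups. The words also draw in genes that are not chaperones of protein folding: 4 metal chaperones, several assembly factors of mitochondrial enzymes and 6 genes described only as binding a chaperone. RNA from mycelium was sequenced in 2 strains and 4 media, with 3 biological replicates in each of 8 groups, after 9 to 11 h of growth at 37 °C. The media joined 0.1 % fructose, which leaves use of other carbon sources open, or 1 % glucose, which represses it, with 5 mM urea, which leaves use of other nitrogen sources open, or 10 mM ammonium tartrate, which represses it. The 4 media are written fructose-urea, fructose-ammonium, glucose-urea and glucose-ammonium, and 4 values in a row follow that order. The strain called wild type carries biA1. The other carries areBΔ::A.f. pyrG together with pyrG89, argB2, nkuAΔ::argB, pabaB22 and riboB2, so that the loss of areB, a GATA-type regulator of nitrogen use, cannot be told apart from the loss of nkuA and the marker differences. No heat treatment was part of the design.

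Molecular chaperones bind unfolded or partly folded proteins and keep them from aggregating. Small heat shock proteins hold such proteins without using ATP, HSP70 with its DnaJ partners and HSP90 with its cochaperones fold them in cycles of ATP use, HSP104 pulls aggregates apart, chaperonins fold inside a ring, and the endoplasmic reticulum and the mitochondrion have chaperones of their own. In fungi many of these genes are induced by heat, and those of the endoplasmic reticulum also by the unfolded protein response.

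Levels below are the authors' mean of normalized counts for a group, 1 value per group, with no values per library, no error of a level and no library depth. Counts grow with transcript length, so a level is compared between groups for the same gene and never between genes. The effect of areB deletion within a medium is the authors' log2 fold change with their adjusted p, called changed under 0.05. A value after ± is a standard error (SE) of that log2 fold change, on the scale of the deposited value, recovered from the adjusted p. It differed by less than 0.1 between the fructose media for 100 % of the 46 chaperone genes that had one in both, and for 99.97 % of all 7847 such genes. That likeness is no test of whether the SE is right. Ratios between media have no test and no error. They are given on the log2 scale with 1 added to each mean. As a check of the strain labels, areB and nkuA were listed at 0 in all 4 deletion groups. Of 10 marker genes of conidiophores and conidia, 8 were found. Their summed level lay between 190 and 290 in every group, most of it from yA and vosA. The gene brlA, the first regulator of conidiophore development, was at most at 5.35 and listed at 0 in 3 of the 4 glucose groups. Single markers moved apart within the sum. In glucose-urea medium conJ had 1.00 in the wild type and 18.0 in the deletion strain, and abaA had 7.62 and 2.95. Neither was called. Of 6 markers of sexual fruiting bodies, 5 were found. Their sum ran from 4799 to 8165 in the wild type on fructose and from 364 to 399 on glucose. In the deletion strain it ran from 3280 to 3726 and from 280 to 334. The gene cpeA made up most of it on fructose, with 5635 and 3505 (urea, then ammonium) in the wild type. In the deletion strain cpeA had 2929 and 3438. Unlike the sum, nsdD in the wild type had 137 and 205 on fructose and 196 and 203 on glucose. In fructose-urea medium 2 of the 5 were called lower by the authors' deposited table. These were esdC, at 997 in the wild type and 70.0 in the deletion strain, and mutA, near the floor at 13.7 and 0.36. The part of these cells in the chaperone levels was not tested, and in bulk RNA fewer cells of a type and less RNA per cell cannot be told apart.

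At the median, chaperone genes held a narrower range than all genes. The gap between the highest and the lowest of the 8 group levels had a median of 0.80 on the log2 scale over the 51 chaperone genes with an average of at least 10, beside 1.02 over all 7759 genes past that average. In 38 of the 52 genes the gap stayed under 1, in 14 it was 1 or more, and in 4 it was 2 or more. The share of all genes with such gaps was not counted. The widest gap was that of AN5781, a putative 30 kilodalton heat shock protein, at 3.67, followed by the small heat shock gene hsp20 at 3.17 and by AN6736, annotated for unfolded protein binding, at 2.52 among genes past that average. The HSP70-type gene AN0587, under that average, had a gap of 3.62 from levels of 0 to 11.3. The 52 genes held from 1.98 % of all normalized counts in the deletion strain in glucose-ammonium medium to 2.63 % in the wild type in fructose-urea medium. The highest share did not mean that most genes peaked there. In the wild type in fructose-urea medium 11 of the 52 genes had their highest level and 21 their lowest. In the deletion strain in glucose-ammonium medium these numbers were 12 and 6, without AN0587, whose 0 there was tied with other groups. Of the counts of the 52 genes, hsp104, hsp90 and AN1163 held 45.59 % in the former group and 33.99 % in the latter.

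**Figure D1:**
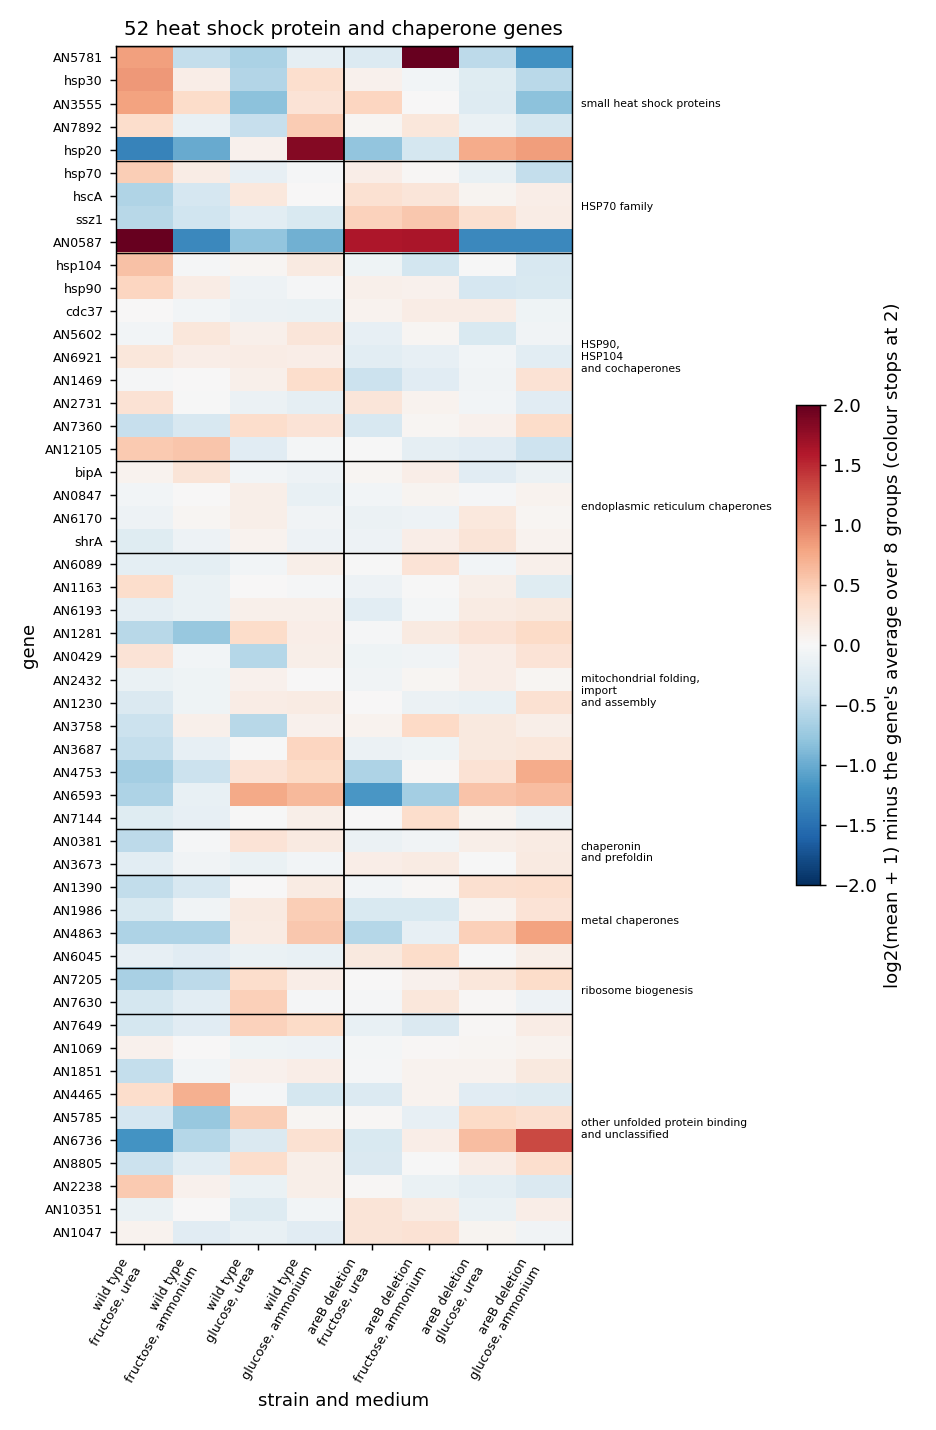
Rows are the 52 heat shock protein and chaperone genes in groups by role, and columns are the 8 groups of strain and medium. Colour is log2 of the group mean plus 1, minus the gene's average over the groups, and stops at 2. Most rows are pale, while AN5781, hsp20, AN0587 and AN6736 carry the strongest colours.

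Between the strains 1 chaperone gene passed the test, in 1 medium. Of the 52 genes, 0, 1, 0 and 0 were called by the DESeq2 comparisons of the authors' deposited table, beside 2.22 %, 2.51 %, 1.88 % and 1.91 % of all 8639 genes tested. Called higher were 0, 1, 0 and 0 (all genes 0.833 %, 1.12 %, 1.39 % and 1.06 %), and called lower 0 in each medium (1.39 %, 1.39 %, 0.486 % and 0.845 %). The 1 gene was AN5781, in fructose-ammonium medium. At an unadjusted p under 0.05, recovered from the authors' deposited table, 2, 1, 1 and 4 chaperone genes stood out, beside 11.7 %, 13 %, 7.78 % and 7.58 % of all genes. The median log2 fold change of the 52 was 0.05, 0.11, 0.02 and 0.04 in the same order, beside -0.03, -0.03, 0 and -0.02 over all genes tested. A log2 fold change of 1 or more in either direction was reached by 0, 2, 0 and 1 of the 52 by the authors' deposited table, that is 0 %, 3.85 %, 0 % and 1.92 %, where all genes gave 11.6 %, 12.5 %, 7.42 % and 6.70 %. Apart from AN5781, the smallest adjusted p values of the authors' deposited table were 0.32 for hsp30, 0.40 for AN12105, 0.52 for AN3758 and 0.14 for AN3555, 1 in each medium.

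**Figure D2:**
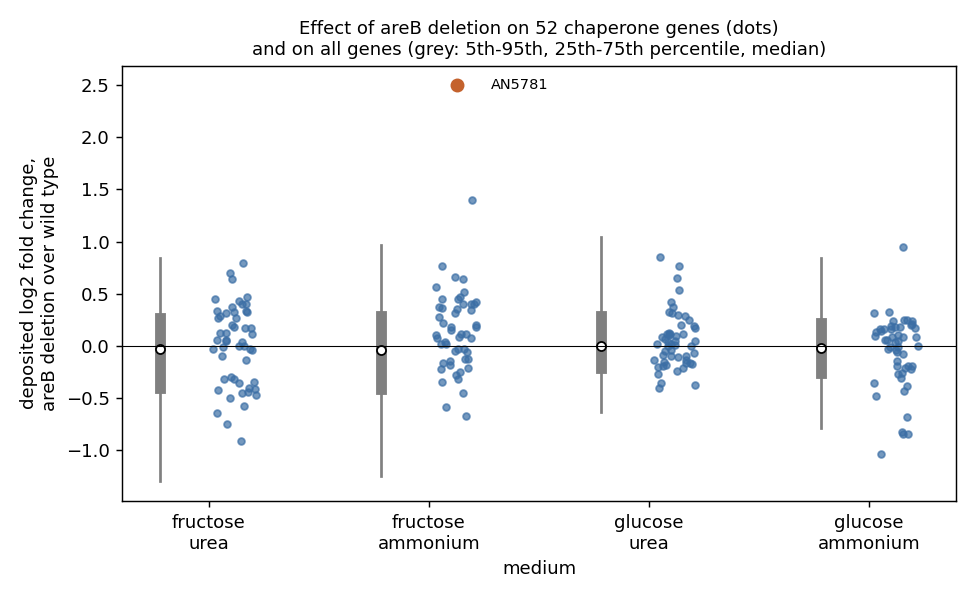
Dots are the authors' log2 fold changes of areB deletion over wild type for the 52 genes in each medium, with the gene called at an adjusted p under 0.05 in orange. Grey bars show all genes by their 5th to 95th and 25th to 75th percentiles and white dots their median. AN5781 in fructose-ammonium medium stands alone at 2.50, and the other members lie between -1.03 and 1.40.

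The gene AN5781 encodes a putative 30 kilodalton heat shock protein, and its annotation adds a transcript that increases during the unfolded protein response. In the wild type its level was 2287, 931, 835 and 1149. In the deletion strain it was 1073, 7181, 906 and 563. The 7181 in fructose-ammonium medium was the highest of its 8 levels, and the other 7 lay between 563 and 2287. In that medium AN5781 rose by 2.50 ± 0.60 on the log2 scale (adjusted p = 0.0034) by the authors' deposited table, and its group means stood 7.71 times apart. In fructose-urea medium the log2 fold change was -0.91 ± 0.60 (adjusted p = 0.63), in glucose-urea medium 0.10 (adjusted p = 1) and in glucose-ammonium medium -0.84 (adjusted p = 1) by the authors' deposited table. The difference between the effects in the fructose-urea and fructose-ammonium media was -3.41 ± 0.85 with an unadjusted p of 6.2e-05 and an adjusted p of 0.53 over 8606 genes. Against glucose-ammonium the difference was 3.34 ± 0.85 (adjusted p = 0.75), with the SE in glucose-ammonium medium borrowed from the gene's other comparisons. The rise was thus not shown to differ between media. Over the 6 pairs of media 0 of the 8606 genes passed this test. Whether 1 library carries the mean of 7181 cannot be seen from a group mean.

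On fructose the means of AN5781 had opposite nitrogen orders in the strains. In the wild type urea stood above ammonium on fructose by 1.30 on the log2 scale, while in the deletion strain the ratio was -2.74. Fructose stood above glucose by 1.45 in the wild type with urea and by 3.67 in the deletion strain with ammonium. With ammonium the wild type ratio was -0.30 and with urea the deletion strain's was 0.24. Of the 6 genes nearest to AN5781 in the RefSeq order of assembly ASM1142v1, 3 to each side, none passed there by the authors' deposited table. The adjacent AN10717 and AN5780 were at 0.03 and 0.05, and AN5779, at 1.01 (means of 24.5 and 52.7), had the smallest adjusted p of the 6, 0.27.

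The other small heat shock genes are hsp30, AN3555, annotated as related to Hsp30p, AN7892, described as a small heat-shock protein and molecular chaperone, and hsp20, whose orthologs act in the response to heat. The level of hsp30 in the wild type was 824, 497, 300.5 and 574, and in the deletion strain 478, 437, 382 and 311. The level of AN3555 was 563, 414, 181 and 387 in the wild type and 434, 322, 267 and 182 in the deletion strain. The level of AN7892 was 658, 466, 374 and 735 in the wild type and 529, 607, 471 and 403 in the deletion strain. All 3 genes had their lowest wild type level in glucose-urea medium. The wild type levels of hsp30 and AN3555 peaked in fructose-urea medium, and that of AN7892 in glucose-ammonium medium.

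On glucose 4 of the 5 small heat shock genes, all but hsp20, had opposite nitrogen orders of their means in the strains, and the difference did not pass the test. In the wild type ammonium stood above urea for all 5 small heat shock genes, with log2 ratios of urea over ammonium of -0.93 for hsp30, -1.09 for AN3555, -0.97 for AN7892, -1.74 for hsp20 and -0.46 for AN5781. In the deletion strain the ratios were 0.29, 0.56, 0.22, -0.09 and 0.68, and 4 of the 5 stood above 0. Between the strains, all 5 genes had a positive log2 fold change in glucose-urea medium and a negative one in glucose-ammonium medium by the authors' deposited table. In glucose-ammonium medium these were -0.84 ± 0.34 for hsp30, -1.03 ± 0.35 for AN3555 and -0.82 ± 0.36 for AN7892, with adjusted p values of 0.34, 0.14 and 0.42, by the authors' deposited table, so none passed. The difference of the deletion effect between glucose-urea and glucose-ammonium was 1.57 ± 0.50 for AN3555, 1.17 ± 0.48 for hsp30 and 1.14 ± 0.50 for AN7892, with unadjusted p of 0.0018, 0.016 and 0.024 and an adjusted p of 1 for each over 8606 genes. For hsp30 and AN7892 the SE in glucose-urea medium was borrowed from the gene's other comparisons.

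The gene hsp20 stood lower on fructose in all 4 comparisons of sugars. Its wild type level was 26.1, 33.1, 72.0 and 244. In the deletion strain it was 38.7, 52.7, 114 and 122. Glucose stood above fructose in both strains with either nitrogen source, by log2 ratios of fructose over glucose from -2.84 in the wild type with ammonium to -1.20 in the deletion strain with ammonium. The deletion left hsp20 uncalled in every medium. Its log2 fold changes were 0.29 ± 0.79, 0.36 ± 0.79, 0.42 and -0.68 by the authors' deposited table. These SEs were larger than those of the other small heat shock genes.

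**Figure D3:**
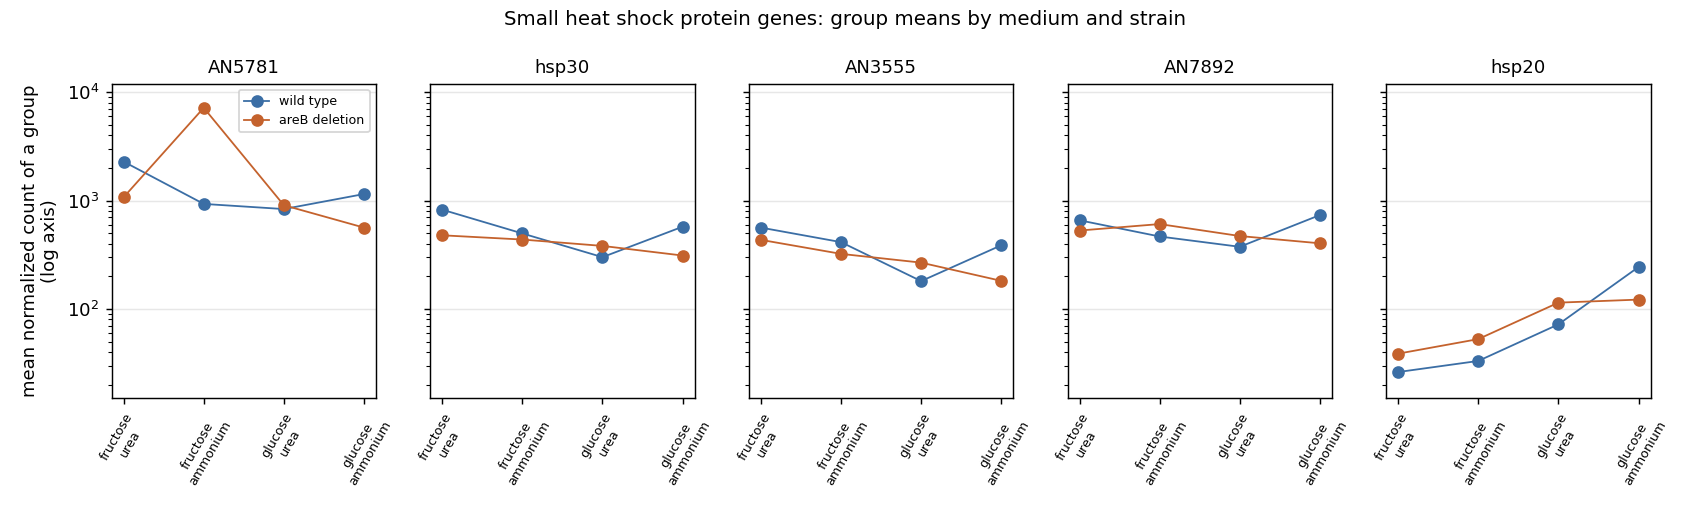
Each panel shows the mean normalized count of a small heat shock gene on a log axis in 4 media, for the wild type in blue and the deletion strain in orange, 1 deposited mean per point, with lines only to guide the eye. AN5781 reaches 7181 in the deletion strain in fructose-ammonium medium, and on glucose the strains' lines cross for all 5 genes.

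Among the HSP70 genes, the cytosolic hsp70 was highest in the wild type in fructose-urea medium. Its wild type levels were 4370, 3444, 2758 and 3060, and those of the deletion strain were 3402, 3134, 2801 and 2236. Fructose stood above glucose in all 4 comparisons, by 0.17 to 0.66 on the log2 scale. The gene hscA, annotated as a putative heat shock protein, had wild type levels of 1772, 2140, 3119 and 2708 and deletion strain levels of 3353, 3202, 2802 and 2957. With urea its log2 ratio of fructose over glucose was -0.82 in the wild type and 0.26 in the deletion strain. The log2 fold changes of hscA between the strains were 0.64 ± 0.74, 0.40 ± 0.74, -0.11 and 0.09 by the authors' deposited table. None passed, with a smallest adjusted p of 0.87. The difference of its deletion effect between fructose-urea and glucose-urea, 0.75 ± 1.05 with the SE in glucose-urea borrowed, did not pass either. The gene ssz1, whose yeast counterpart sits on ribosomes, lay between 120 and 152 in the wild type and between 196 and 258 in the deletion strain. Its log2 fold changes of 0.70 ± 0.75, 0.66 ± 0.75, 0.37 and 0.31 did not pass by the authors' deposited table, with a smallest adjusted p of 0.82. A further putative HSP70 chaperone, AN0587, described as induced by nitrate, was near the floor: 11.3 in the wild type in fructose-urea medium, 6.50 and 6.58 in the deletion strain on fructose, at most 0.40 in the wild type on glucose, and listed at 0 in the other 3 groups.

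The class of HSP104, HSP90 and their partners also took in AN7360, of the DnaJ superfamily, whose members partner HSP70. Its 9 genes had gaps between highest and lowest level of at most 0.96 on the log2 scale. The disaggregase gene hsp104 had 14819 in the wild type in fructose-urea medium and between 9644 and 11160 in the other wild type groups, against 7632 to 9786 in the deletion strain. Its log2 fold change in fructose-urea medium was -0.65 ± 0.37 (adjusted p = 0.52) by the authors' deposited table. The gene hsp90 had 10736, 8800, 7366 and 7811 in the wild type and 8520, 8412, 6309 and 6430 in the deletion strain. Fructose stood above glucose for hsp90 in all 4 comparisons, by 0.17 to 0.54. The kinase-directed HSP90 cochaperone gene cdc37 stayed between 1668 and 2040 over all 8 groups. Among genes known only by their annotation, AN5602, an ATPase activator of the heat response, and AN6921, a chaperone-binding gene with a telomere role, lay between 1465 and 2142 and between 2629 and 3548. AN2731, an ATPase activator that binds unfolded proteins, ranged from 1240 to 1759. The DnaJ superfamily gene AN7360 was lower on fructose than on glucose in all 4 comparisons, with log2 ratios from -0.80 to -0.33, as was AN1469, an ATPase activator, with ratios from -0.50 to -0.12. AN12105, with a chaperone-binding domain, was higher on fructose in all 4, by 0.22 to 0.76. Over the 9 genes of this class the median log2 fold change between the strains was -0.32, -0.17, -0.16 and -0.26 in the 4 media by the authors' deposited table, and none passed.

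Chaperone genes of the endoplasmic reticulum had gaps of 0.26 to 0.50 between highest and lowest level. The level of bipA, the lumenal HSP70 and a target of the unfolded protein response, was 4282, 4879, 3933 and 3780 in the wild type and 4191, 4449, 3493 and 3739 in the deletion strain. The log2 fold changes of bipA between the strains were -0.03 ± 0.37, -0.13 ± 0.38, -0.16 and -0.01 by the authors' deposited table, with a smallest adjusted p of 0.95. Fructose stood above glucose for bipA in all 4 comparisons, by 0.12 to 0.37. The lumenal chaperone gene AN0847 lay between 1448 and 1739, AN6170, annotated in the degradation of proteins from this compartment, between 503 and 630, and shrA, which packages amino acid permeases into transport vesicles, between 121 and 171. Urea stood below ammonium on fructose for all 4 genes in both strains, with log2 ratios no lower than -0.23. On glucose it stood above ammonium for all 4 in the wild type, by 0.06 to 0.26, and for 2 of 4 in the deletion strain.

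Genes for folding, import and enzyme assembly in mitochondria tended to lie lower on fructose. Of the 12, fructose stood below glucose for 9 and 11 in the wild type (urea, then ammonium). In the deletion strain it did so for 10 and 8. The share of all genes below glucose was not counted in single comparisons. Medians of the 12 were -0.25, -0.26, -0.21 and -0.22, beside 0.05, 0.03, 0.03 and 0.03 over all genes with an average of at least 10. The largest gaps belonged to assembly factors of respiratory complex IV. AN6593 had 228 and 318 in the wild type on fructose (urea, then ammonium) against 592 and 552 on glucose, and 156 and 217 against 523 and 540 in the deletion strain, with log2 ratios of -1.37, -0.80, -1.74 and -1.31. AN4753 had 392 and 466 against 758 and 821 in the wild type, and 411 and 636 against 768 and 1054 in the deletion strain. AN1281, of the matrix import motor, had 296 and 256 against 557.5 and 477 in the wild type, while the deletion strain's 427 and 490 lay nearer to its 525 and 564 on glucose. The putative 60 kilodalton heat shock gene AN6089 stayed between 838 and 1158, AN1163, the ortholog of the yeast matrix disaggregase Hsp78p, between 5307 and 8010, and AN6193, annotated as an ATP-dependent peptidase of mitochondrial quality control, between 3023 and 4003. The remaining 6 of the class, AN0429, AN1230, AN2432, AN3687, AN3758 and AN7144, had gaps between highest and lowest level from 0.27 to 0.96, and none of the 12 was called in any medium.

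Of the 4 metal chaperones, 3 were lower on fructose in all 4 comparisons. The copper chaperone gene AN4863, which serves complex IV, had 57.3 in both wild type fructose groups and 99.2 and 129 on glucose (urea, then ammonium), and 59.3 and 79.1 against 123 and 155 in the deletion strain. The copper chaperone gene AN1390 and the iron chaperone gene AN1986 had log2 ratios of fructose over glucose from -0.50 to -0.31 and from -0.58 to -0.38. AN6045, the copper chaperone of superoxide dismutase, had ratios from -0.09 to 0.26. Both genes annotated for ribosome biogenesis, AN7205 and AN7630, were lower on fructose in the wild type. Their ratios were -0.99 and -0.82 with urea and -0.65 and -0.19 with ammonium. In the deletion strain the ratios lay between -0.28 and 0.34, and neither gene was called between the strains in any medium. The chaperonin complex gene AN0381 had its lowest level, 864, in the wild type in fructose-urea medium and lay between 1147 and 1503 elsewhere. The prefoldin gene AN3673 stayed between 53.8 and 70.6.

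Of the 10 other genes, AN6736 spread most. Its wild type levels were 13.3, 21.1, 26.0 and 39.7, and those of the deletion strain were 25.5, 35.1, 49.3 and 81.4. The order of media was the same in both strains, and the deletion strain was higher in every medium. Its log2 fold changes were 0.79 ± 0.48, 0.64 ± 0.46, 0.85 ± 0.45 and 0.95 ± 0.44 by the authors' deposited table, with adjusted p values of 0.58, 0.64, 0.69 and 0.52, so none passed. AN4465, annotated for unfolded protein binding, had 99.1 and 127 on fructose (urea, then ammonium) against 76.6 and 60.8 on glucose in the wild type, and lay between 64.0 and 81.2 in the deletion strain. AN5785, with the same annotation, had 190 and 142 against 340 and 248.5 in the wild type and lay between 216 and 315 in the deletion strain. The putative heat shock gene AN1047 lay between 2831 and 4082. The remaining 6, AN1069, AN1851, AN2238, AN7649, AN8805 and AN10351, had gaps between highest and lowest level from 0.19 to 0.81.

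By carbon source, fructose stood below glucose for 31 and 38 of the 52 genes in the wild type (urea, then ammonium). In the deletion strain it did so for 32 and 26. The share of all genes below glucose was not counted in single comparisons. In all 4 comparisons fructose stood below glucose for 19 of the 52 genes (36.5 %), beside 26.8 % of all 8728 genes, and above glucose for 7 (13.5 %), beside 34.1 %. The 7 were hsp70, hsp90, bipA, AN2731, AN3555, AN10351 and AN12105. At least 2-fold higher on fructose were 4 of 52 in the wild type with urea (23.6 % of all genes), 1 in the wild type with ammonium (17.9 %), 1 in the deletion strain with urea (11.9 %) and 2 in the deletion strain with ammonium (11.8 %). The 4 were AN5781, hsp30, AN3555 and AN0587, and the 1 with ammonium was AN4465. In the deletion strain the 1 was AN0587, and the 2 were AN0587 and AN5781. All levels of AN0587 were at or under 11.3, and it was listed at 0 on glucose in the deletion strain. At least 2-fold lower were 2 (7.75 %), 2 (6.13 %), 3 (4.92 %) and 3 (5.29 %) in the same order, drawn from hsp20, AN6593, AN4863 and AN6736. The median log2 ratio of the 52 was -0.17, -0.19, -0.09 and 0.01, beside 0.11, 0.05, 0.05 and 0.05 over all genes. Over all genes with an average of at least 10 it was 0.05, 0.03, 0.03 and 0.03. The sugars also differed in amount, so kind and amount of sugar cannot be told apart.

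By nitrogen source fewer chaperone genes were 2-fold apart than by carbon source, and so were fewer of all genes. Urea stood below ammonium for 32 and 26 of the 52 in the wild type (fructose, then glucose). In the deletion strain it did so for 39 and 29. The share of all genes below ammonium was not counted in single comparisons. The median log2 ratio of the 52 was -0.07, -0.002, -0.09 and -0.03 in the same order, beside -0.02, -0.05, -0.02 and -0.009 over all genes. At least 2-fold higher with urea than with ammonium were 2 of 52 in the wild type on fructose (6.48 % of all genes), AN5781 and AN0587, and 0 in the wild type on glucose (1.78 %), in the deletion strain on fructose (1.54 %) and in the deletion strain on glucose (1.89 %). At least 2-fold lower were 0 (3.77 %), 2 (4.78 %), 1 (1.66 %) and 0 (2.39 %) in the same order of groups. The 2 were hsp20 and AN3555, and the 1 was AN5781. The same side of ammonium was kept in all 4 comparisons by 11 genes below (21.2 %), beside 16.1 % of all genes, and by 2 above (3.85 %), AN2731 and AN5785, beside 10.8 %. The ammonium salt also brought tartrate, and effects of the 2 cannot be told apart.

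**Figure D4:**
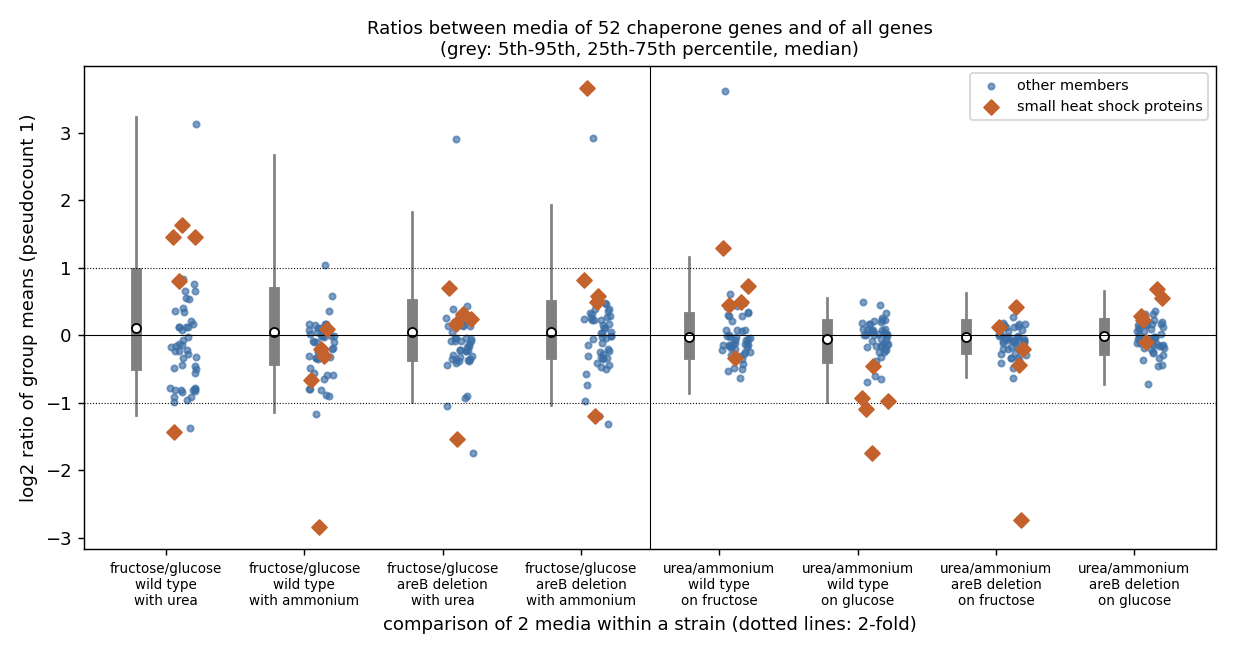
Points are log2 ratios of group means with 1 added, between 2 media within a strain, for the 52 genes, with the 5 small heat shock genes as orange diamonds. Grey bars show all genes by percentiles, and dotted lines mark 2-fold. Most points lie within 2-fold, and the small heat shock genes lie below 0 together for urea against ammonium in the wild type on glucose.

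Genes related by function but outside the chaperone words were counted in the same comparisons. Of 46 other genes with words for protein folding, chaperonins, prefoldin, disulfide isomerases, prolyl isomerases or the unfolded protein response, 0 were called in any of the 4 media by the authors' deposited table, beside 1.88 to 2.51 % of all genes, and the median log2 fold change was 0.09, 0.06, -0.03 and 0.02. The chaperonin subunit gene cct1 had 900 and 1237 on fructose (urea, then ammonium) against 1608 and 1495 on glucose in the wild type. The calnexin gene clxA, a lectin chaperone of the endoplasmic reticulum, had 227 and 241 against 111 and 128. Another of the 46, pdiA, went the other way in the wild type, with 1240 and 1382 against 1403 and 1601. For hacA and ireA, regulators of the unfolded protein response, the smallest adjusted p values were 0.39 and 0.27 by the authors' deposited table. Their log2 fold changes were -0.31, -0.54, 0.13 and -0.13 for hacA and -0.26, -0.33, 0.02 and -0.14 for ireA. Whether this response was active, and its part in the level of AN5781, was not tested. Of 5 stress regulators matched, hacA, ireA, msnA, atfA and srrA, 0 were called. The largest log2 fold changes of the 5 were those of msnA on fructose. It had 450 and 574 (urea, then ammonium) in the wild type and 222 and 192 in the deletion strain. Its log2 fold changes there were -0.86 ± 0.58 and -1.34 ± 0.58 by the authors' deposited table, with adjusted p values of 0.64 and 0.25. Of 9 genes described with trehalose, a sugar that protects proteins in heat, 0 were called. The synthase gene tpsA had 813, 350, 537 and 457 in the wild type and 1048, 664, 815 and 595 in the deletion strain.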

How the data were processed

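Ribosomal RNA was depleted from total RNA, and 24 libraries were sequenced as paired reads of 100 bp. Per the submitters' processing notes the tools included HTSeq 0.9.1 and DESeq2 1.16.1. Aligner, build and gene models: not given in the sources used here. The authors deposited the signal, a mean of normalized counts per group, the fold change as a ratio, deletion strain to wild type, and a p-value adjusted over genes, with no values per library, so replicates were not examined and counting error is unknown. For genes over 2-fold apart with both means above 5, the deposited fold change was on the log2 scale smaller than the ratio of the deposited means, by a median factor of 0.800 to 0.847 in the 4 media. From the deposited columns, Python 3.11.15 computed log2 ratios of means (pseudocount 1). An unadjusted p was recovered by inverting the Benjamini-Hochberg step, and an SE as log2 fold change over its normal deviate. Where the adjusted p fixed that deviate within 10 %, the SE was the gene's own, otherwise, for differences between media, it was the median of its other comparisons. These differences were tested 2-sided and adjusted over genes in each of 6 pairs of media. Identifiers of 50 of 52 members matched the RefSeq table of assembly ASM1142v1. Genes were put into classes by hand from their descriptions. The members and lists were chosen with earlier results of these data known. Individually described were AN5781, called genes, the 12 with the widest range, the 8 with the highest mean count (a choice of genes only, since lengths were not at hand) and textbook symbols, and other members for completeness, after their values were seen. One gene, hapX, matched a list word only by its letters and was left out.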

Additional observations from a re-analysis of the deposited data

How the results depend on the processing

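No paired analysis was possible because the deposited table holds group means and not values per library, and for the same reason no replicate could be left out. The single call among the 52 genes, AN5781 on fructose with ammonium, stood at adjusted p thresholds of 0.1 and 0.01, when a log2 fold change of 1 in either direction was also required, with the 43 genes left without metal and enzyme assembly chaperones, and readjusted over genes with a mean of at least 10. The other 3 media gave 0 calls under each of these. Ratios between media were recomputed with pseudocounts of 5 and 0.1, over genes with a mean of at least 10, recentred by the median of all genes, and over the 43 genes. Of 100 recomputed counts and medians over the 52 genes, 98 stayed within 1.5 times the count or within 0.1 on the log2 scale of the median. Genes 2-fold apart between fructose and glucose in the deletion strain with urea numbered 2 over the 43 genes instead of 4, and between urea and ammonium in the wild type on fructose 1 instead of 2 past the mean of 10, since AN0587 was then left out. Of 420 recomputed values of single genes 2 crossed 2-fold: the log2 ratio of fructose over glucose of AN4753 in the wild type with urea was -1.004 when recentred, and that of AN4863 in the deletion strain with urea -0.997 with a pseudocount of 5. No value reversed. Depth per library is unknown, and levels near 0 such as those of AN0587 carry no error.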
